A study of Homo sapiens with 15 samples.

Results

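The 8 genes described here, CD34, ESM1, APLN, CXCR4, IGFBP3, INSR, PDGFB and MCAM, form a list of genes linked to endothelial tip cells, with CD34 at its centre. They were looked up by symbol among the probesets with 1 symbol in the array annotation. Each of the 8 had 1 such probeset, so 8 of 18417 measured genes are covered. The RNA came from JINB8 exosomes, from JK exosomes, from human umbilical vein endothelial cells (HUVEC) kept with JINB8 exosomes for 6 h, from HUVEC kept with JK exosomes for 6 h, and from untreated HUVEC, with 3 arrays in each of the 5 groups. JK stands for Jurkat, a human leukaemic T cell line that carries the surface receptor CD47, and JINB8 for JinB8, its CD47-deficient mutant line. Both T cell lines were grown with human AB serum. Exosomes, small vesicles that cells release, were precipitated from their conditioned medium, and HUVEC received them in EGM2 medium. The labels name no vehicle for the untreated cells, and they treat HUVEC as a cell line. Whether the replicates came from separate cultures is not stated, so each p-value reflects the spread among these arrays alone, and that spread may be technical.

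When a new vessel sprouts, 1 endothelial cell leads it as the tip cell, sending out filopodia and migrating along guidance signals, while the stalk cells behind it proliferate and form the tube. VEGF signalling favours the tip cell state, and Notch signalling from the tip cell's DLL4 holds its neighbours in the stalk state. In HUVEC cultures CD34 marks a minority of cells with tip cell features, and ESM1, APLN and CXCR4 are widely used tip cell markers. The array signals come from bulk RNA, in which fewer cells of a type and less RNA per cell cannot be told apart.

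The start regions of CD34 and CXCR4, whose signals fell most in treated HUVEC, and of APLN and INSR, which moved the other way after rescaling, are given here to set members of opposite direction side by side. They are the 250 bases before the RefSeq start site in GRCh38.p14, each on the minus strand and read 5′ to 3′: chr1:207911126-207911375 for CD34, chr2:136118150-136118399 for the first of 3 CXCR4 start sites, chrX:129654957-129655206 for APLN and chr19:7294415-7294664 for INSR. Capitals mark the GC box GGGCGG, a letter pattern bound by SP1-type factors, on either strand, so that CCGCCC is the same box read from the other strand.
CD34: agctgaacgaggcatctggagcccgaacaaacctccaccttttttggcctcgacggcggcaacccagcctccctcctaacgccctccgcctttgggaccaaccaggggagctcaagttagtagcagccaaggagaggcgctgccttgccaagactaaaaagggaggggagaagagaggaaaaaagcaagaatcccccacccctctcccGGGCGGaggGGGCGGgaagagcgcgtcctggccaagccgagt
CXCR4: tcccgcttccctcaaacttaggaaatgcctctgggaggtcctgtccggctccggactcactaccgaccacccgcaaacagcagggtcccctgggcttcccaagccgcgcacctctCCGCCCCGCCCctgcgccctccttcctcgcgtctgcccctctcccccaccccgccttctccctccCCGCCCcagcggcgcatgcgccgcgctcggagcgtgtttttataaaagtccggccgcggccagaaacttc
APLN: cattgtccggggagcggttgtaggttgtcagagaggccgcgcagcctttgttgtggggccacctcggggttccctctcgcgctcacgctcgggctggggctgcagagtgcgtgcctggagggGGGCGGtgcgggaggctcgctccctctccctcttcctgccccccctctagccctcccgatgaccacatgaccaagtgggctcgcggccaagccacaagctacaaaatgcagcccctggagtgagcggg
INSR: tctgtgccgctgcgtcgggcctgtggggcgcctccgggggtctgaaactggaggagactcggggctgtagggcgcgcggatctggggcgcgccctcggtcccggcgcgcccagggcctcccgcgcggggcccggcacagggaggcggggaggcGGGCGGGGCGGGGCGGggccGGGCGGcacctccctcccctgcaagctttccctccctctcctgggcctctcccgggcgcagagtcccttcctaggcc
RefSeq promoters matched 7 of the 8 genes, and PDGFB was the one without an entry. At the first start site of each gene, GC boxes stood in 6 of the 7 matched genes. They stood in 42.6% of 35116 windows of the same length. In CD34 they lie 42 to 37 and 33 to 28 bases before the start site. In CXCR4 and INSR neighbouring boxes share a base and print as 1 longer run of capitals. The hypoxia response core ACGTG matched only ESM1 among the 7 (18.5% of windows), and the ETS pattern CCGGAA only IGFBP3 (14.5%). The forkhead pattern GTAAACA and the AP-1 pattern TGANTCA matched 0 of the 7 (3% and 6.6% of windows). All 5 patterns were searched on both strands. GC boxes were thus present both in genes with lower signals (CD34, CXCR4) and in genes with higher ones (APLN, INSR).

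The deposited values are log2 signals, and the groups did not lie on the same level. Array medians over all probesets averaged 5.12 ± 0.01 in JINB8 exosome RNA and 5.11 ± 0.03 in JK exosome RNA (SD, n = 3). They averaged 5.11 ± 0.02 in JINB8-treated, 5.14 ± 0.03 in JK-treated and 6.97 ± 0.06 in untreated HUVEC. Over the 18417 genes the medians were 5.17 to 5.22 in exosome RNA, 5.57 to 5.67 in treated and 7.41 to 7.44 in untreated HUVEC. The marker counts below use these gene medians. The untreated arrays thus stand apart, and in each comparison with them batch and treatment cannot be told apart. Differences from untreated HUVEC are therefore given after quantile normalization of the 9 HUVEC arrays, which forces equal distributions, and the 3 other scalings tried (values as deposited, median centring of each array, and cyclic loess) are given where they change a direction or a call. As deposited, 99.1% of all genes were lower with JINB8 and 99.3% with JK exosomes. All genes of the tip cell, stalk cell, partner and endothelial lists below were lower too, except ADM, which was higher, and DLL4, which did not pass with JK exosomes. All 9 measured endothelial markers lay above the array median on every HUVEC array, with summed linear signals of 12793 to 13262 in JINB8-treated, 12056 to 13128 in JK-treated and 22187 to 25858 in untreated HUVEC. From 8 to 10 of 12 T cell markers lay above the median in exosome RNA, against 1 on each HUVEC array. Their sums were 936 to 954 in JINB8 and 825 to 908 in JK exosome RNA. In HUVEC they were 320 to 336 in JINB8-treated, 316 to 346 in JK-treated and 1053 to 1199 in untreated cells. On the exosome arrays 4 to 5 of the 9 endothelial markers also lay above the median. Summed signals of 10 mural cell and fibroblast markers were 1541 to 1729 in JINB8-treated, 1439 to 1514 in JK-treated and 5890 to 6470 in untreated HUVEC. These sums are on the deposited scale, on which the median gene was lower by log2 differences of -1.71 with JINB8 and -1.68 with JK exosomes. After quantile normalization 3 of the 10 mural markers were lower and 2 higher in both comparisons (medians -0.05 and -0.10). Of all genes 49.3% and 48.6% passed. TAGLN was lowest at -4.96 and -5.06, and ACTA2 highest at 0.32 and 0.38. With median centring 2 were lower and 4 higher with JINB8 exosomes (18.7% and 38.1% of all genes). With JK exosomes 2 were then lower and 3 higher (19.5% and 35.1% of all genes). RGS5 turned from -0.26 to 0.33 with JINB8, passing both times, and from -0.44 to 0.04 with JK exosomes. With cyclic loess ACTA2 did not pass with JINB8 exosomes (0.25). The part of such cells in the results was not tested. No detection calls came with the values, so low signals could not be set against background, and the number of arrays limits the precision.

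**Figure D1:**
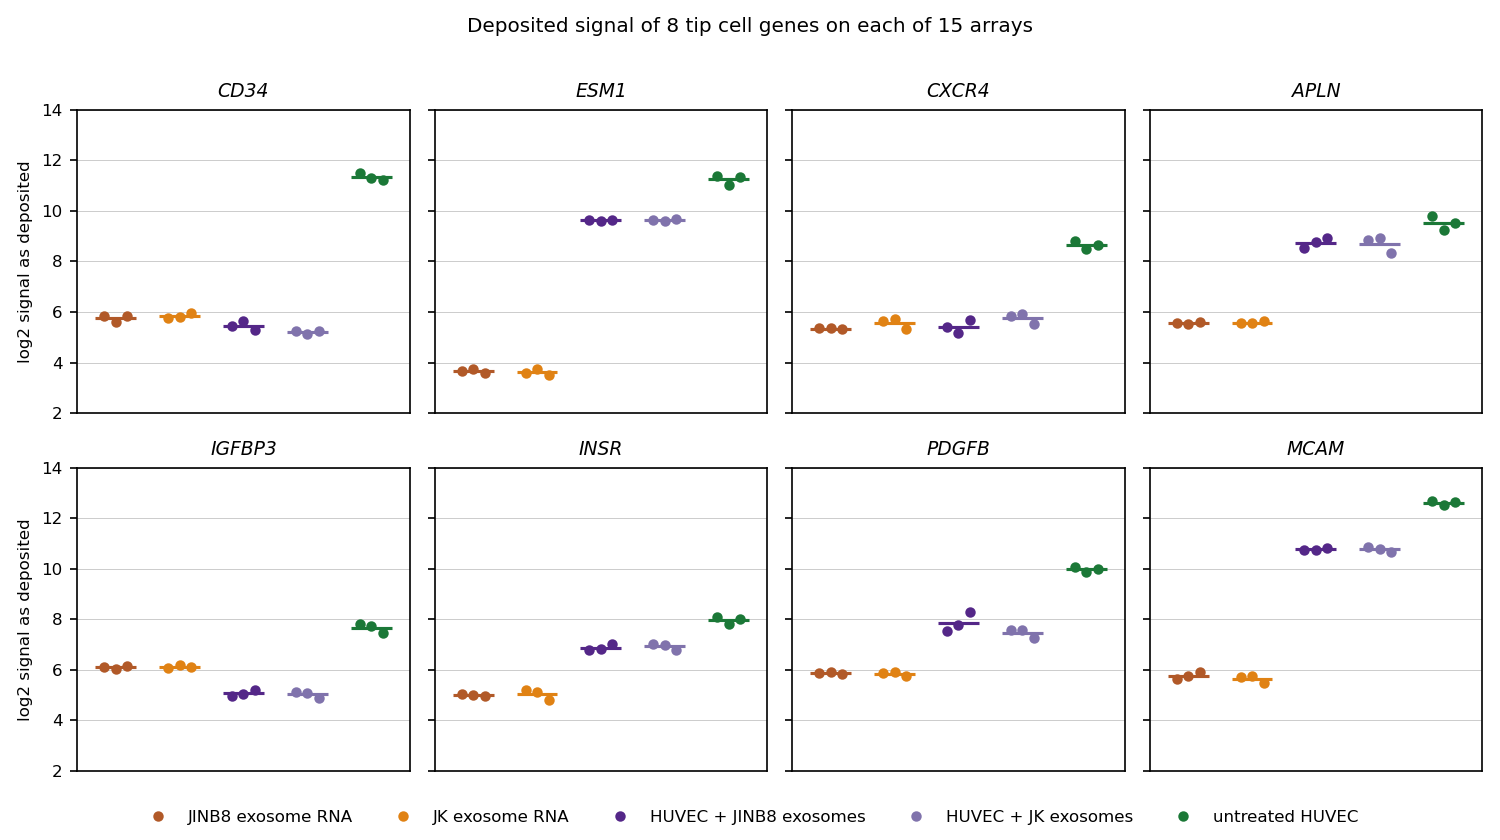
Deposited log2 signal (vertical axis) of each of the 8 genes on each of the 15 arrays, 1 panel per gene. Points are arrays, bars are group means, and groups run from JINB8 exosome RNA on the left to untreated HUVEC on the right. Untreated HUVEC, whose arrays lie on a deposited level of their own, is the highest group in all 8 panels. CD34 lies between 5.12 and 5.96 on the other 12 arrays.

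The comparisons with untreated HUVEC asked how endothelial cells differed after 6 h with T cell exosomes. After quantile normalization 6 of the 8 genes were lower and 2 higher with JINB8 exosomes, where 49.3% of all genes passed the test in either direction, 23.3% lower and 26% higher. With JK exosomes 6 were again lower and 2 higher, where 48.6% of all genes passed, 22.4% lower and 26.2% higher (limma, Benjamini-Hochberg adjusted p under 0.05 over 18417 genes). CD34 and CXCR4 were the members at least 2-fold lower in both comparisons, a size reached by 3.52% of genes with JINB8 and 3.45% with JK exosomes. The median log2 difference of the 8 genes was -0.68 with JINB8 and -0.78 with JK exosomes, against 0.02 over all genes in each comparison. The comparisons share the 3 untreated arrays, so agreement in direction between them is not independent. In all 8 genes the treated and untreated arrays did not overlap in either comparison, as for 57.7% of all genes with JINB8 and 56.1% with JK exosomes. An exact permutation test of 3 against 3 arrays cannot give a p below 0.1.

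CD34, a surface sialomucin of endothelial and haematopoietic progenitor cells and a ligand of selectins, had the steepest fall of the 8. Its deposited log2 signals were 5.44, 5.63 and 5.27 in JINB8-treated HUVEC, 5.24, 5.12 and 5.24 in JK-treated HUVEC and 11.51, 11.29 and 11.22 in untreated HUVEC. It ranked 9018 to 10276 among 18417 genes on the JINB8-treated arrays, 10356 to 10905 on the JK-treated arrays and 399 to 487 on the untreated arrays. CD34 thus was among the strongest signals in untreated cells and lay below the median of the 18417 genes on 5 of 6 treated arrays. After quantile normalization its log2 signal averaged 6.08 ± 0.19 in JINB8-treated, 5.80 ± 0.09 in JK-treated and 10.47 ± 0.09 in untreated HUVEC (SD, n = 3 each). The log2 difference was -4.38 ± 0.11 (SE) with JINB8 exosomes, 20.9-fold lower, and -4.67 ± 0.11 with JK exosomes, 25.4-fold lower, with limma adjusted p-values of 4.82e-10 and 3.59e-10. It stood second from the lowest of 18417 differences in both. The sign held under all 4 scalings, with log2 differences of -4.05 (JINB8) and -4.36 (JK) after median centring and -5.89 and -6.14 as deposited.

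CXCR4, the receptor of the chemokine CXCL12 that guides migrating endothelial cells and leukocytes, was second in size. Its deposited signals were 5.41, 5.18 and 5.67 in JINB8-treated, 5.86, 5.93 and 5.53 in JK-treated and 8.82, 8.51 and 8.65 in untreated HUVEC. Ranks were 9041 to 10418, 8373 to 9453 and 4875 to 5468 on these arrays, so the gene lost place on every treated array. On the quantile-normalized scale CXCR4 differed by -1.53 ± 0.12 (adjusted p = 2.64e-06) with JINB8 and -1.25 ± 0.12 (adjusted p = 1.32e-05) with JK exosomes, and it was negative under all 4 scalings.

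Among the secreted members, IGFBP3, which binds insulin-like growth factors, also fell under all 4 scalings. Its deposited signals were 4.98, 5.06 and 5.22 in JINB8-treated, 5.13, 5.07 and 4.90 in JK-treated and 7.80, 7.75 and 7.46 in untreated HUVEC. After quantile normalization IGFBP3 differed by -0.74 ± 0.11 (adjusted p = 0.000149) with JINB8 exosomes and by -0.85 ± 0.11 (adjusted p = 6.43e-05) with JK exosomes. IGFBP3 ranked 10442 to 11026 on JINB8-treated, 10740 to 11423 on JK-treated and 7965 to 9023 on untreated arrays.

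PDGFB encodes the B chain of platelet-derived growth factor, by which tip cells recruit pericytes. Deposited signals were 7.52, 7.78 and 8.27 in JINB8-treated, 7.58, 7.58 and 7.27 in JK-treated and 10.07, 9.88 and 9.99 in untreated HUVEC, with JINB8-treated replicate 3 the highest treated array. The quantile-normalized log2 difference was -0.63 ± 0.16 (adjusted p = 0.00702) with JINB8 and -0.998 ± 0.16 (adjusted p = 0.000418) with JK exosomes. After median centring the value with JINB8 exosomes was -0.29 and did not pass (limma adjusted p = 0.126).

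ESM1, the secreted proteoglycan endocan, differed little once arrays were scaled. Deposited signals were 9.64, 9.59 and 9.65 in JINB8-treated, 9.62, 9.60 and 9.69 in JK-treated and 11.38, 11.02 and 11.35 in untreated HUVEC. It ranked 645 to 713, 634 to 667 and 418 to 610, and so stayed among the strong signals of every HUVEC array. The quantile-normalized log2 difference was -0.29 ± 0.09 (adjusted p = 0.0239) with JINB8 and -0.26 ± 0.09 (adjusted p = 0.0372) with JK exosomes. After median centring it was 0.22 (adjusted p = 0.0988) and 0.17 (adjusted p = 0.190), of opposite sign and not passing. The call was lost in 3 of the refits that left out 1 array with JINB8 exosomes (JINB8-treated replicate 2, untreated replicates 1 and 3) and in 5 with JK exosomes (each JK-treated array, untreated replicates 1 and 3).

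MCAM, the adhesion molecule CD146 of endothelial junctions and pericytes, was likewise close to the untreated level after median centring. Its deposited signals were 10.74, 10.74 and 10.83 in JINB8-treated, 10.84, 10.79 and 10.65 in JK-treated and 12.67, 12.52 and 12.65 in untreated HUVEC. Its quantile-normalized log2 difference was -0.72 ± 0.08 (adjusted p = 3.10e-05) and -0.71 ± 0.08 (adjusted p = 3.70e-05). With median centring it was -0.01 (adjusted p = 0.958) and -0.07 (adjusted p = 0.549). MCAM ranked 166 to 197 on JINB8-treated, 166 to 208 on JK-treated and 51 to 67 on untreated arrays.

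APLN and INSR were the members that rose after quantile normalization, median centring and cyclic loess, and that were lower as deposited. APLN encodes apelin, the tip cell peptide ligand of the receptor APLNR. Its deposited signals were 8.53, 8.78 and 8.91 in JINB8-treated, 8.85, 8.91 and 8.35 in JK-treated and 9.79, 9.25 and 9.52 in untreated HUVEC. Within the array it gained place, at ranks 1342 to 1871, 1279 to 2145 and 2469 to 3354. The quantile-normalized log2 difference was 0.71 ± 0.16 (adjusted p = 0.00354) with JINB8 and 0.70 ± 0.16 (adjusted p = 0.00417) with JK exosomes, against -0.78 and -0.82 as deposited.

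INSR encodes the insulin receptor, which insulin-like growth factor 2 can also engage in its shorter isoform. Deposited signals were 6.80, 6.82 and 7.01 in JINB8-treated, 7.01, 6.99 and 6.78 in JK-treated and 8.11, 7.80 and 8.03 in untreated HUVEC. Ranks were 5211 to 5692, 5221 to 5784 and 6870 to 7823, a gain of place on all 6 treated arrays. The quantile-normalized log2 difference was 0.59 ± 0.10 (adjusted p = 0.000569) and 0.62 ± 0.10 (adjusted p = 0.000427), against -1.10 and -1.05 as deposited, on the scale where the median gene was lower still. The deposited decreases of INSR and APLN were thus smaller than that of the median gene.

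**Figure D2:**
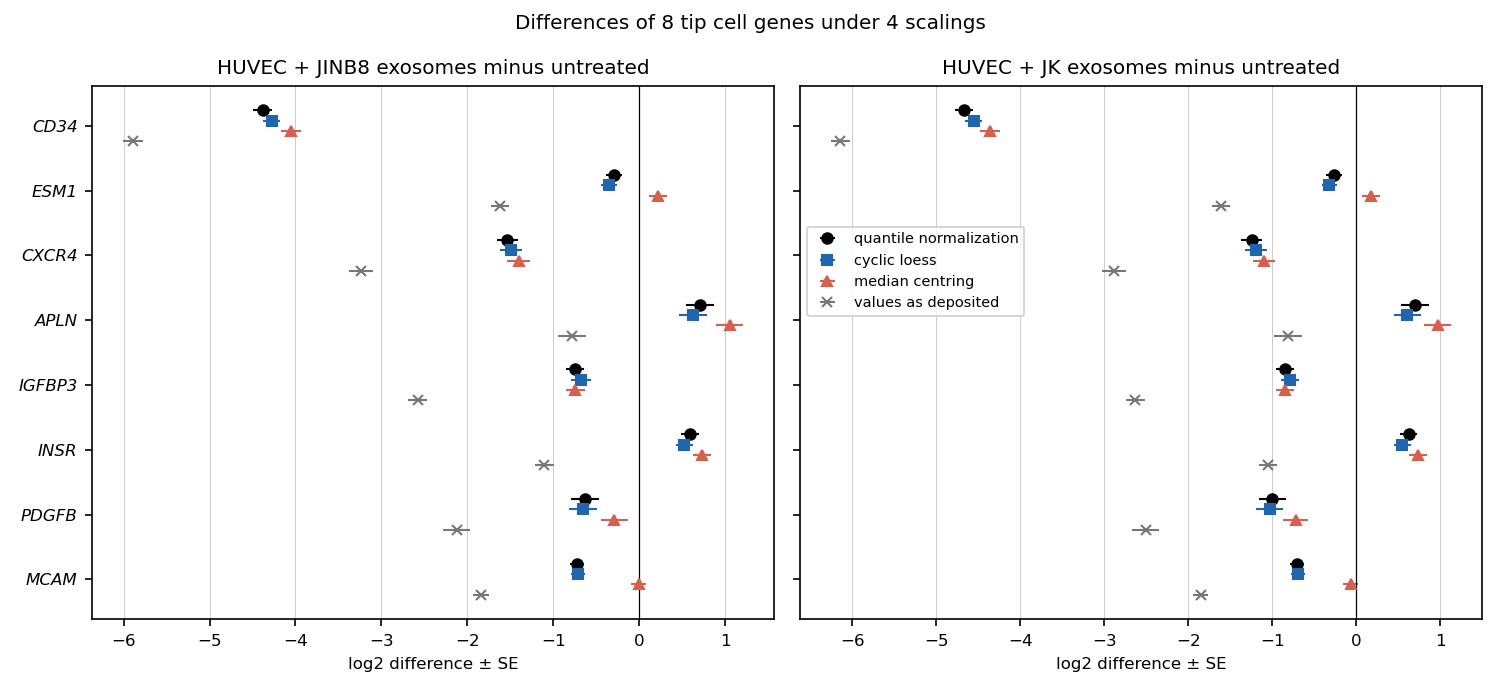
Log2 difference from untreated HUVEC (horizontal axis, limma estimate ± SE, n = 3 per group) of the 8 genes under 4 scalings, JINB8-treated on the left and JK-treated on the right. CD34 lies between -4.05 and -6.14 under every scaling, ESM1 and MCAM lie near 0 after median centring, and APLN and INSR lie above 0 except as deposited.

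**Figure D3:**
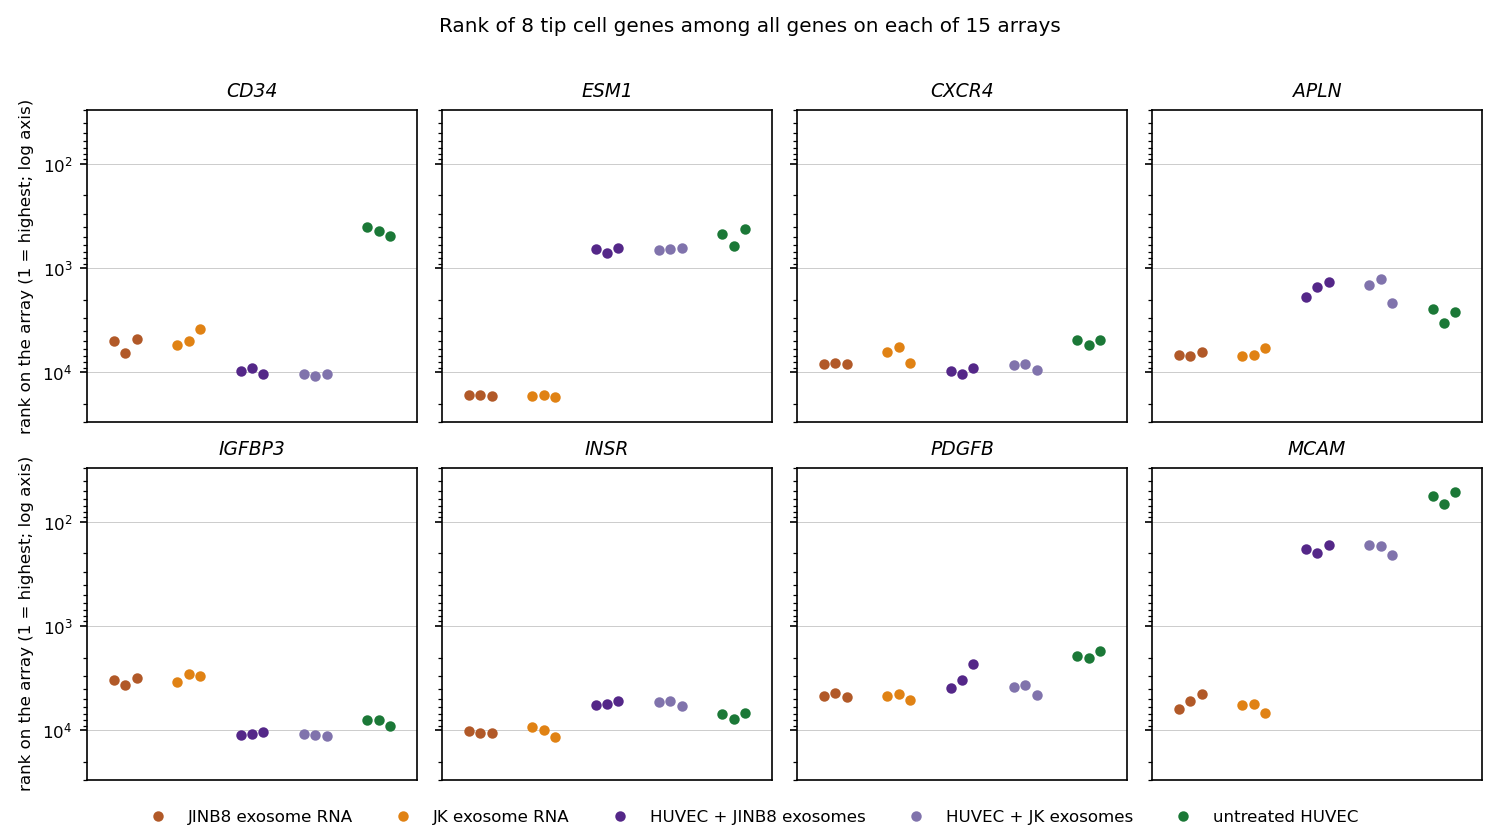
Rank of each gene among 18417 genes on each of the 15 arrays (vertical log axis, 1 being the highest signal), a measure that a shift of the whole array or quantile normalization does not change. Points are arrays. CD34 ranks 9018 to 10905 on the treated arrays against 399 to 487 on the untreated ones, while ESM1 ranks no lower than 713 and MCAM no lower than 208 on any HUVEC array.

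The levels of the 2 treated groups were set against each other directly, in the deposited values, where both groups lie on 1 level. Of the 8 genes 0 passed, as did 0% of all 18417 genes (limma adjusted p under 0.05). At an unadjusted p under 0.05 there were 3 members (CD34, CXCR4 and PDGFB) and 9.11% of all genes. CD34 was 0.25 higher in JINB8-treated than in JK-treated HUVEC on the log2 scale (95% interval 0.01 to 0.49, adjusted p = 0.537), and its 3 values did not overlap, as for 17.5% of all genes. CXCR4 differed by -0.35 (interval -0.66 to -0.05, adjusted p = 0.485) with overlapping values. PDGFB differed by 0.38 (interval 0.04 to 0.73, adjusted p = 0.514), and by 0.18 without JINB8-treated replicate 3. The other 5 genes differed by at most 0.05 in either direction (adjusted p of at least 0.915). The interval for CD34 is small beside its difference from untreated cells in either group.

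The RNA of the vesicles themselves was compared next, to see whether the loss of CD47 went with other levels of these genes. Between JINB8 and JK exosome RNA 0 of the 8 genes passed, where 0.679% of all genes did, and at an unadjusted p under 0.05 there were 0 members and 8.06% of all genes. The values of the groups overlapped for all 8, where 12.9% of all genes did not overlap. CXCR4 had deposited signals of 5.35, 5.35 and 5.34 in JINB8 exosome RNA and 5.64, 5.70 and 5.32 in JK exosome RNA. Its log2 difference of -0.21 (95% interval -0.42 to 0.002, limma adjusted p = 0.625) was the widest of the 8, and JK replicate 3 lay with the JINB8 arrays. CD34 had 5.83, 5.59 and 5.85 in JINB8 exosome RNA and 5.76, 5.82 and 5.96 in JK exosome RNA, a difference of -0.09 (interval -0.29 to 0.11). MCAM differed by 0.12 (interval -0.08 to 0.32), and the other 5 by at most 0.05 in either direction.

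Set against the treated HUVEC, the exosome RNA had lower signals of ESM1, MCAM, APLN and INSR under all 4 scalings. This comparison differs in cell type and RNA source together, and 94.9% of all genes passed in it, 49.7% lower and 45.3% higher. Of the 8 genes 5 were lower, 2 higher and 1 not called, and the values of 6 did not overlap, as for 88.4% of all genes. The median log2 difference of the 8 was -1.84 against -0.13 over all genes. ESM1 had the lowest signals, 3.66, 3.73 and 3.61 in JINB8 and 3.60, 3.74 and 3.51 in JK exosome RNA, at ranks 16460 to 17197. Its log2 difference was -5.99 ± 0.05 (SE, limma adjusted p = 5.10e-21, n = 6 arrays each).

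The SD of the log2 signal over genes was 1.03 to 1.07 on the exosome arrays and 1.97 to 2.01 on the treated HUVEC arrays, and the sizes differed with the scaling. MCAM followed with -5.06 ± 0.06, APLN with -3.15 ± 0.09, INSR with -1.87 ± 0.07 and PDGFB with -1.80 ± 0.10, and none of these 4 overlapped between exosome RNA and treated cells. With quantile normalization MCAM was at -2.92, APLN at -1.59, INSR at -1.18 and ESM1 at -4.83, and with cyclic loess at -1.24, -0.51, -0.98 and -4.08, all still passing. PDGFB was at -0.33 with quantile normalization and turned to 0.29 with cyclic loess (adjusted p = 0.0104), so its sign rests on the scaling. IGFBP3 was higher, with 6.13, 6.04 and 6.14 in JINB8 and 6.09, 6.19 and 6.10 in JK exosome RNA, and a log2 difference of 1.05 ± 0.06 (adjusted p = 2.65e-11), or 1.96 with quantile normalization. CD34 was 0.48 ± 0.07 higher (adjusted p = 7.64e-06), or 1.24 with quantile normalization, with overlapping deposited values. At 5.59 to 5.96 its exosome signals lay far under those of untreated HUVEC. CXCR4 was not called as deposited (-0.15 ± 0.09, adjusted p = 0.130) and turned to 0.43 with quantile normalization (adjusted p = 0.000413), 0.27 with median centring (adjusted p = 0.00652) and 0.11 with cyclic loess. It passed in 2 refits, at -0.21 each, without JK-treated replicate 3 or JINB8-treated replicate 2.

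Across the 5 groups the order of the deposited levels ran alike for ESM1, MCAM, APLN, INSR and PDGFB: untreated HUVEC highest, the treated groups next with overlapping values, and the exosome groups lowest, again overlapping. For CD34 the order was untreated HUVEC, then both exosome groups, then JINB8-treated and JK-treated HUVEC, where the highest JINB8-treated array (5.63) reached into the exosome range (from 5.59). For IGFBP3 it was untreated HUVEC, exosome RNA and then treated HUVEC without overlap between these 3 sets. For CXCR4 untreated HUVEC stood alone above the other 4 groups, of which JK-treated HUVEC was next without overlap with JINB8 exosome RNA, and the rest overlapped. These orders are those of the deposited values, where the untreated arrays lie on a level of their own. By rank on the array CD34, CXCR4, ESM1, PDGFB and MCAM still stood highest in untreated HUVEC. APLN and INSR stood higher in treated than in untreated HUVEC by rank. IGFBP3 ranked 2878 to 3658 in exosome RNA against 7965 to 9023 in untreated HUVEC.

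Other tip cell genes were lower more often than higher as well. Of 23 such genes 14 were lower and 4 higher with JINB8 exosomes, and 15 lower and 4 higher with JK exosomes (medians -0.53 and -0.55, against 0.02 over all genes), where 23.3% of all genes were lower and 26% higher with JINB8, and 22.4% and 26.2% with JK exosomes. With median centring 9 of the 23 were lower and 7 higher with JINB8 (18.7% and 38.1% of all genes), and 9 lower and 8 higher with JK exosomes (19.5% and 35.1% of all genes). PLAUR, the urokinase receptor of invading cells, had a log2 difference of -2.11 ± 0.12 with JINB8 and -2.01 ± 0.12 with JK exosomes (adjusted p = 1.94e-07 and 2.94e-07). UNC5B, a netrin receptor in vessel guidance, had -1.05 ± 0.08 and -1.13 ± 0.08, and PGF, the VEGF relative placental growth factor, had -1.24 ± 0.10 and -1.12 ± 0.10. COL4A1, a basement membrane collagen, was among the 4 lowest p-values with JINB8 exosomes (-1.86 ± 0.17), and MMP14, a membrane-bound matrix protease, with JK exosomes (-0.88 ± 0.07). KDR, the main VEGF receptor, had -1.34 ± 0.29 and -1.03 ± 0.29, the second of which did not pass with median centring (-0.57, adjusted p = 0.0901).

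ADM, the gene of the vessel-relaxing peptide adrenomedullin, was higher by 3.18 ± 0.27 with JINB8 and 3.09 ± 0.27 with JK exosomes, and was the 1 gene of the 23 also higher as deposited (1.65 and 1.52). DLL4, the Notch ligand of tip cells, was higher by 1.22 ± 0.19 and 1.38 ± 0.19, against -0.43 and -0.28 as deposited. LAMA4, a vascular laminin chain, was higher by 0.47 ± 0.09 and 0.53 ± 0.09, and NRP2, a VEGF co-receptor, by 0.44 ± 0.10 and 0.45 ± 0.10, and both genes had larger values with median centring (1.06 each for LAMA4, 0.79 and 0.73 for NRP2). Tip cell genes therefore moved in both directions within the list.

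Of 8 stalk cell genes 3 were lower and 2 higher in both comparisons, so 5 of 8 passed where 49.3% and 48.6% of all genes did. The Notch target HEY2 had -3.80 ± 0.13 with JINB8 and -3.94 ± 0.13 with JK exosomes, HEY1 had -2.64 ± 0.14 and -2.48 ± 0.14, and the Notch ligand JAG1 had -1.53 ± 0.08 and -1.58 ± 0.08 (adjusted p of 2.13e-07 or less for each). FLT1, a decoy VEGF receptor, was higher by 0.73 ± 0.08 and 0.67 ± 0.08, and HES1, another Notch target, by 0.37 ± 0.14 and 0.39 ± 0.14 (adjusted p = 0.0482 and 0.0411). HES1 did not pass with cyclic loess (adjusted p = 0.0695 and 0.0734). NRARP, ROBO4 and TEK did not pass, but TEK, an angiopoietin receptor, was higher with median centring (0.33 and 0.34, adjusted p = 0.00837 and 0.0072).

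Of 21 measured relatives, ligands and receptors of the 8 genes, 9 were lower and 6 higher with JINB8, and 9 lower and 4 higher with JK exosomes (medians -0.05 and -0.10), or 15 and 13 of 21 passing beside the same 49.3% and 48.6% of all genes. CXCL12, the chemokine that CXCR4 binds, had -2.65 ± 0.14 and -2.64 ± 0.14 (adjusted p = 1.29e-07 and 1.40e-07), and ACKR3, the other CXCL12 receptor, -0.50 ± 0.10 and -0.64 ± 0.10. PODXL, a sialomucin of the CD34 family, had -1.13 ± 0.08 and -1.34 ± 0.08 (-0.51 and -0.81 with median centring), while its relative PODXL2 did not pass (-0.05 and 0.08). EMCN, an endothelial sialomucin, was 0.76 ± 0.26 with JINB8 (adjusted p = 0.0316) and 0.34 ± 0.26 with JK exosomes (adjusted p = 0.301). With cyclic loess its value with JINB8 exosomes did not pass (0.67, adjusted p = 0.0564), and with median centring that with JK exosomes did (0.76, adjusted p = 0.029).

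Ligands of the PDGF family fell beside PDGFB: PDGFD had -2.03 ± 0.10 with JINB8 and -1.92 ± 0.10 with JK exosomes, and PDGFA -1.81 ± 0.12 and -1.72 ± 0.12, while PDGFC did not pass (0.28 and -0.10), except with median centring and JINB8 exosomes (0.47, adjusted p = 0.0118). The receptor PDGFRA was higher by 0.40 ± 0.10 and 0.32 ± 0.10. It did not pass with median centring (0.27 and 0.16, adjusted p = 0.109 and 0.328), nor with cyclic loess in the comparison with JK exosomes (0.25, adjusted p = 0.0579). Of the binding proteins related to IGFBP3, IGFBP7 had -1.08 ± 0.08 and -1.16 ± 0.08 (-0.30 and -0.45 with median centring), and IGFBP4 was higher by 0.67 ± 0.08 and 0.52 ± 0.08 (1.27 and 1.05 with median centring). In the comparison with JK exosomes IGFBP5 (-0.85 ± 0.14) and the ligand IGF1 (-0.73 ± 0.13) were lower too. Neither gene passed between JINB8-treated and JK-treated HUVEC, so no difference between the exosomes is meant. IGF1R, the receptor closest to INSR, was higher by 0.39 ± 0.09 and 0.40 ± 0.09, and IRS2, an adaptor of both receptors, by 0.42 ± 0.09 with JINB8 exosomes (0.23 ± 0.09 with JK, adjusted p = 0.0501). IGF2R, which clears IGF2, was higher by 0.27 ± 0.08 and 0.31 ± 0.08. APLNR, the apelin receptor, had -0.22 in both and did not pass (adjusted p = 0.139), but it was lower with cyclic loess (-0.34 and -0.36, adjusted p = 0.0169 and 0.0127).

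**Figure D4:**
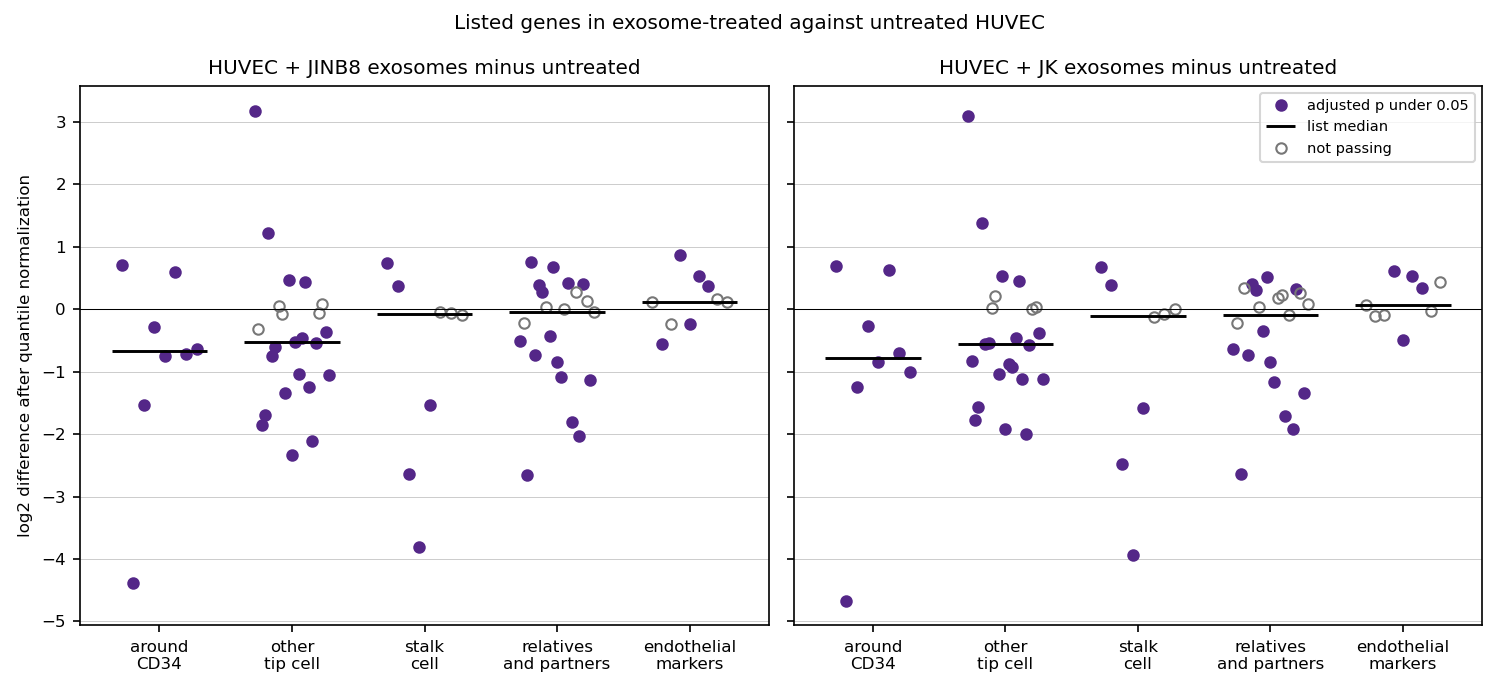
Log2 difference from untreated HUVEC after quantile normalization (vertical axis) of every gene in 5 lists, JINB8-treated on the left and JK-treated on the right. Filled points passed adjusted p under 0.05, open points did not, and bars are list medians, which lie below 0 for both tip cell lists and near 0 for the endothelial markers.

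Among 9 general endothelial markers 2 were lower and 3 higher with JINB8 exosomes, and 1 lower and 3 higher with JK exosomes, beside 49.3% and 48.6% of all genes passing. With median centring 1 was lower and 6 higher with JINB8, and 0 lower and 6 higher with JK exosomes (medians 0.68 and 0.80), and as deposited all 9 were lower. CDH5, the junctional VE-cadherin, was at 0.12 and 0.06 and did not pass, at 0.94 and 0.80 with median centring (adjusted p = 2.53e-06 and 1.14e-05), and at -0.90 and -0.99 as deposited. PECAM1, also a junction molecule, was higher by 0.37 ± 0.08 and 0.35 ± 0.08 (-0.69 and -0.71 as deposited). ESAM was lower, at -0.23 ± 0.08 with JINB8 and -0.49 ± 0.08 with JK exosomes, but did not pass with median centring (0.11 and -0.22). CLDN5 was lower with JINB8 exosomes (-0.55 ± 0.14) and did not pass with JK exosomes (-0.11 ± 0.14). After quantile normalization the 9 markers ranged from -0.55 to 0.87 with JINB8 and from -0.49 to 0.61 with JK exosomes. Between JINB8-treated and JK-treated HUVEC, and between JINB8 and JK exosome RNA, 0 genes of any of these lists passed. At an unadjusted p under 0.05 the other tip cell, stalk cell, partner and endothelial lists held 2, 0, 2 and 4 genes between treated groups, where 9.11% of all genes did so, and 1, 1, 1 and 0 between exosome groups, where 8.06% did.

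Over the 9 HUVEC arrays values were quantile-normalized and each gene was centred on its own mean. Passing over LOC and ORF symbols, the pattern of CD34 was then nearest to that of FST, TAGLN, PTGS2, HEY2 and CCNA1. Their root mean square differences from CD34 were 0.268, 0.283, 0.357, 0.375 and 0.381 on the log2 scale, and their correlations with it lay between 0.991 and 0.998. TAGLN is also 1 of the 10 mural cell and fibroblast markers. These points fall into treated and untreated arrays, so the correlation mostly restates 1 step, and it is given as a description. By the same measure, with no symbol passed over, CXCR4 ranked 303rd among genes near CD34, IGFBP3 941st, PDGFB 972nd, MCAM 1177th and ESM1 4103rd. INSR and APLN, of opposite direction, ranked 16891st and 17354th.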

How the data were processed

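RNA of 9 HUVEC samples and 6 exosome samples was measured, 3 per group, on Affymetrix whole-transcript arrays from 300 ng of total RNA, per the labels' protocols. The authors deposited log2 signals for 33297 probesets, made with Affymetrix Expression Console per the submitters' processing notes. The sources used here give neither its version nor which arrays were normalized together. The log2 scale was read from the values' range, and 0 values were missing. In GEO's platform annotation 19460 probesets had 1 gene symbol, 1754 several and 12083 none. Per gene the 1-symbol probeset of highest mean across 15 arrays was kept (18417 genes, 769 with several probesets).

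Groups came from the labels. HUVEC contrasts were fitted over 9 arrays, exosome RNA over 6, and exosome RNA against treated HUVEC over 12, with limma 3.58.1 in R 4.3.3 (lmFit, eBayes; 6, 4 and 8 residual degrees of freedom), Benjamini-Hochberg adjustment over all genes and a threshold of 0.05. Contrasts with untreated HUVEC used quantile-normalized values, the others deposited ones. All fits were tested on simulated data with known changes. The changes were added to few genes after scaling, so the scaling itself was not tested. For JINB8-treated against JK-treated HUVEC 53.7% of 67 genes changed 1.5-fold and 97% of 67 genes changed 2-fold were recovered. The text names the 8 members, up to 4 called genes per list and direction with the smallest p, and the 5 genes nearest CD34. Among the latter, LOC and ORF symbols were passed over. KDR, ACKR3, EMCN, PODXL2, PDGFC, APLNR, CDH5, PECAM1, ESAM, CLDN5, NRARP, ROBO4 and TEK were added after their values were seen. So was the second contrast's value of any gene named in 1. So were the values of IGFBP5 and IGF1 with JK exosomes. Members and lists were chosen with earlier results of these data known. Alternatives were other scalings, leaving out the 40% dimmest genes, probeset means, a variance trend with robust fitting, the replicate block, 1 fit over 15 arrays and leaving out each array.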

Additional observations from a re-analysis of the deposited data

How the results depend on the processing

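CD34, CXCR4, IGFBP3, INSR and APLN passed in both comparisons with untreated HUVEC under every alternative run, INSR and APLN with the sign turned as deposited, where APLN was -0.78 with JINB8 and -0.82 with JK exosomes and INSR -1.10 and -1.05. As deposited, 0 members were higher, and 18286 and 18319 genes passed. With median centring ESM1 turned to 0.22 and 0.17, 3 and 4 members were lower, and the calls split into 7025 higher and 3450 lower with JINB8 and 6462 and 3587 with JK exosomes, against 4791 and 4283, and 4829 and 4121, after quantile normalization. The cause was not tested. Leaving out 1 array, 5 to 6 members were lower, 2 higher, and 7830 to 8594 (JINB8) and 7801 to 8485 (JK) genes passed.

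Between JINB8-treated and JK-treated HUVEC the number of genes called was 8 with median centring, 6 with cyclic loess, 8 without the 40% dimmest genes, 23 with a variance trend and robust fitting and 93 in a fit of all 15 arrays; it was 0 to 3 leaving out 1 array. No member was called in any of these. MCAM turned to -0.010 with quantile normalization and -0.023 with cyclic loess, ESM1 to 0.045 and INSR to 0.00022 with median centring. Leaving out 1 array gave ESM1 -0.028 to 0.018, APLN -0.14 to 0.14, IGFBP3 -0.013 to 0.11 and MCAM -0.048 to 0.047. For JINB8 against JK exosome RNA it gave 54 to 100 genes, with 77 and 59 without JINB8 replicates 2 and 3 and 54 without JK replicate 3, and ESM1 -0.0037 to 0.11, APLN -0.030 to 0.017, IGFBP3 -0.042 to 0.0093, INSR -0.15 to 0.062 and PDGFB -0.019 to 0.057. In that fit the filter on dim genes left ESM1 out. For exosome RNA against treated HUVEC 10579 genes passed without the dimmest genes, CXCR4 turned to 0.43, 0.27 and 0.11 under the 3 scalings, and PDGFB to 0.29 with cyclic loess.

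Deviations of same-numbered replicates from their group means had correlations of -0.453 to 0.347. With 3 arrays per group this cannot decide whether the numbers pair samples, and the main fits paired none. With the replicate block 8810 (JINB8) and 8618 (JK) genes passed against untreated HUVEC, 0 between treated groups, 104 in exosome RNA and 17460 between exosome RNA and treated HUVEC, and no member's call changed. Limits are the 3 arrays per group, the unknown normalization of the untreated arrays and the missing detection calls, so the sizes of changes to or from low signals are uncertain.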
